A study of Mus musculus with 8 samples.

Results

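The dendritic cell marker genes were 10 genes, Flt3, Zbtb46, Xcr1, Clec9a, Batf3, Itgae, Cd209a, Dpp4, Fscn1 and Cd83, of 21051 genes listed for sorted tumor macrophages. They were chosen by name for their known use as markers of dendritic cells, by a rule that uses no measured value but with earlier results of these data known. All 10 had enough reads to be tested. Xcr1, the chemokine receptor of cross-presenting dendritic cells, was 3.42-fold higher in the macrophage fraction of Colec11-/- mice (TAM-KO) than in that of WT mice (TAM-WT), from a low level in both. Cd83, a surface protein of activated antigen-presenting cells, was 2.19-fold lower in TAM-KO. These were the 2 of 10 genes that passed an adjusted p of at most 0.05, 1 in each direction, while 9.81% of all genes tested passed, 4.58% higher and 5.24% lower in TAM-KO. The other 8 did not pass, and among them were Flt3 and Zbtb46, which mark conventional dendritic cells as a whole, and Clec9a, which marks the same subset as Xcr1.

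Conventional dendritic cells take up antigen in tissues, carry it to lymph nodes and present it to T cells. They depend on the growth factor FLT3 ligand and carry the transcription factor ZBTB46. The cDC1 subset requires BATF3 and IRF8, bears XCR1 and CLEC9A and cross-presents antigen of dead cells to CD8+ T cells, while the cDC2 subset relies on IRF4 and KLF4 and bears lectins such as CD209a and CD301b. Either subset can mature in tumors, and mature cells gain CD83, fascin and CCR7. Several of these proteins, CD83 among them, are also made by activated macrophages.

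TAM-WT and TAM-KO each comprised 4 libraries, 1 per mouse, of RNA from cells sorted as CD45+F4/80+ on day 14 after B16 melanoma cells were injected under the skin. B16 is a pigmented mouse melanoma line of C57BL/6 origin. The hosts were male C57BL/6 mice aged 8 to 10 weeks, Colec11-/- in every cell for TAM-KO and WT littermates for TAM-WT, and Colec11 encodes collectin-11, a soluble lectin that can activate complement. Neither group received a further treatment, and the comparison asks how the sorted cells differ when the host lacks Colec11.

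The 7 libraries with whole tables held 16225362 to 17280267 reads on genes. The table of TAM-KO replicate 1 lacks 5311 genes, so 6 of the marker genes (Flt3, Cd209a, Itgae, Fscn1, Dpp4 and Cd83) were tested on 3 TAM-KO libraries. For Flt3, Fscn1, Dpp4 and Cd83 its value is printed from a series-wide table, which lists genes that the authors selected as differing between the groups, and it did not enter the test. The same holds for the value of TAM-KO replicate 1 of any other gene said to be tested on 3 TAM-KO libraries. Colec11 had 0 to 4 counts in TAM-WT and 1 count in each TAM-KO library, too few to check the genotype. Defining macrophage markers were abundant, with Adgre1, which encodes F4/80, between 182 and 239 FPKM, and C1qa between 1613 and 2161 FPKM. RNA of melanoma genes was abundant too. The 7 listed melanoma markers summed to 1958 to 4382 FPKM in TAM-WT and 3817 to 5057 FPKM in TAM-KO. Among them, Pmel, between 530 and 1478 FPKM, was above Adgre1 in every library that lists both. FPKM scales fragments to the length of the gene and the depth of the library, so levels of different genes can be set side by side. TAM-WT replicate 1 stood apart from the rest of TAM-WT in T cell and NK cell genes, with Cd3g at 4.58 FPKM beside 0.15 to 0.23 FPKM. Without it, Xcr1 and Cd83 both passed, with log2 fold changes of 2.26 and -1.32 (adjusted p = 0.0265 and 0.00542 from edgeR). In such bulk RNA, fewer cells of a type and less RNA per cell cannot be told apart.

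The order of the levels was led by Cd83 in both groups. In TAM-WT its level was 65.7 ± 18.6 FPKM (SD, n = 4), followed by Fscn1 at 5.52 ± 2.44, Cd209a at 4.52 ± 1.52 and Batf3 at 4.02 ± 0.945 FPKM (SD, n = 4 each), whose ranges overlapped each other in this order. Zbtb46, at 1.19 ± 0.241 FPKM (SD, n = 4), stood apart from Batf3 above it and from Flt3 below it. Flt3, Dpp4, Itgae, Clec9a and Xcr1 had means from 0.698 down to 0.18 FPKM, and each overlapped its neighbour in the order. In TAM-KO, Xcr1 took the eighth place in place of the last, at 0.66 ± 0.258 FPKM (SD, n = 4), and overlapped Dpp4 above and Itgae below it. Gaps between neighbours in TAM-KO were left only after Cd83 and after Batf3. The overlap of Cd209a with Flt3 below it rests on the Flt3 value of TAM-KO replicate 1, 2.11 FPKM, from the series-wide table. In TAM-KO replicates 2 to 4, Flt3 was at most 1.05 FPKM and Cd209a at least 2.09 FPKM. All 10 genes were above 0 in every library that lists them, at levels below those of Adgre1 and C1qa.

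**Figure D1:**
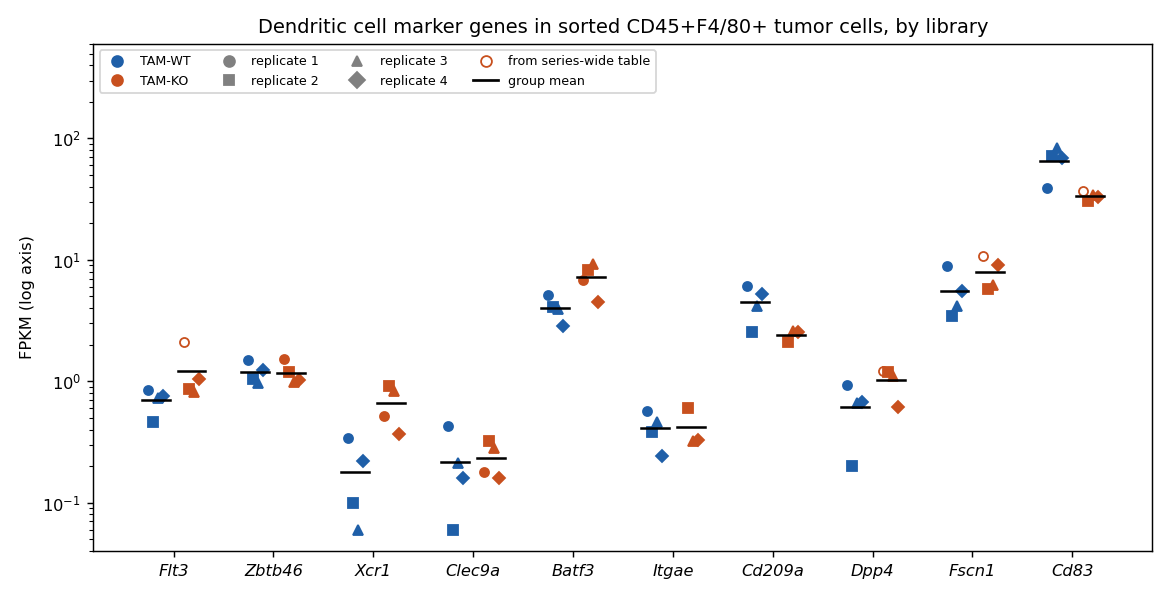
FPKM of the 10 marker genes in each library on a log axis, with TAM-WT in blue, TAM-KO in orange, a symbol per replicate and a bar at the group mean. Open symbols are values of TAM-KO replicate 1 from the series-wide table. Of the 10 marker genes, only Xcr1 and Cd83 show groups that do not overlap. Groups did not overlap for 17.1% of all genes tested on every library. The share was 26.5% for genes tested on 3 TAM-KO libraries and compared without TAM-KO replicate 1.

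BATF3, a product of the marker genes themselves, binds DNA with JUN and IRF proteins at a composite of an AP-1 and an IRF element, so the promoters of the marker genes were searched for it. RefSeq promoters of GRCm38.p6, from 250 bases before to 50 after the start, were matched for 8 of the 10 genes, the others being Cd83 and Itgae. The composite, GAAA followed at once by TGANTCA on either strand, was in Zbtb46 and in 0.125% of 32851 promoters, and the shorter AP-1 element TGANTCA that it contains was in Zbtb46 and in 7.81%. The PU.1-IRF composite, GGAA and GAAA set 2 bases apart, was in Cd209a and in 2.72% of promoters. The tandem interferon response element, GAAA and GAAA set 2 bases apart, was in Dpp4 and in 3.44%, and the PU.1 element GAGGAAGT was in 0 of the 8 and in 3.20%. A match describes letters and not a bound site. Shown from 140 bases before the start to 10 from it, 5′ to 3′ on the strand of the gene, are Xcr1 (chr9:123862020-123862169, minus strand), which passed the test and held none of these motifs, Zbtb46 (chr2:181424379-181424528, minus strand) with the BATF-IRF match at -61 to -51 in capitals, and Cd209a (chr8:3748975-3749124, minus strand) with the PU.1-IRF match at -9 to 1 in capitals. Both matches lie on the reverse strand, so the capitals are the reverse complement of the motif. The Zbtb46 window lies inside the gene, which spans 181371009 to 181493262. It therefore surrounds an internal start and not the outermost one, unlike the windows of Xcr1 and Cd209a.
Xcr1: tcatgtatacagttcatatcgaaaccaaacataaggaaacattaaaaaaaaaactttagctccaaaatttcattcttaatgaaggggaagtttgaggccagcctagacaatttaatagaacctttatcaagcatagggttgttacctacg
Zbtb46: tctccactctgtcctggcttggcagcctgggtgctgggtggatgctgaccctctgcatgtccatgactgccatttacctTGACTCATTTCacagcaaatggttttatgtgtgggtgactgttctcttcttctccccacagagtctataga
Cd209a: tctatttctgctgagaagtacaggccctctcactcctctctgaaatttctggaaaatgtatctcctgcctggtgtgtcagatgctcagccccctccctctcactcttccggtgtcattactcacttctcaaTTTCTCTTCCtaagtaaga

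Xcr1 (chromosome 9, 123852315 to 123862029, GRCm38.p6 in RefSeq), the receptor for the chemokine XCL1, was at 0.34, 0.10, 0.06 and 0.22 FPKM in TAM-WT replicates 1 to 4 and at 0.52, 0.92, 0.83 and 0.37 FPKM in TAM-KO replicates 1 to 4. Every TAM-KO library was above every TAM-WT library, with TAM-KO replicate 4 just over TAM-WT replicate 1. The values rest on 24, 7, 4 and 16 counts in TAM-WT and on 38, 63.3, 59 and 26.5 counts in TAM-KO, of which the values that are not whole hold reads shared with another gene. The log2 fold change was 1.78 ± 0.46 (SE, edgeR's quasi-likelihood test, adjusted p = 0.0435, 8 libraries). Of all tested genes with 8 values, 17.1% had groups that did not overlap, 12.3% with TAM-KO higher and 4.8% with TAM-KO lower. The call held in 3 of 8 leave-one-library-out fits. It was lost without TAM-WT replicate 3 or 4 or without TAM-KO replicate 1, 2 or 3, with adjusted p from edgeR of up to 0.137, and the log2 fold change stayed between 1.51 and 2.26.

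Clec9a (chromosome 6, 129408862 to 129424764), a receptor for actin filaments of dead cells on the same subset, was at 0.43, 0.06, 0.21 and 0.16 FPKM in TAM-WT and at 0.18, 0.32, 0.28 and 0.16 FPKM in TAM-KO. TAM-WT replicate 1 was the highest of all libraries, and the TAM-KO libraries lay within the TAM-WT range. Its counts were 3 to 21 in TAM-WT and 8 to 15 in TAM-KO, and its log2 fold change was 0.04 ± 0.49 (SE, edgeR adjusted p = 0.964). The ratio of both genes was compared after their values were seen. Per library, the log2 ratio of Xcr1 to Clec9a counts, each plus 0.5, was 0.19, 1.10, -1.22 and 0.96 in TAM-WT and 2.02, 2.04, 2.04 and 1.67 in TAM-KO. All TAM-KO ratios were above all TAM-WT ratios, with a difference of the means of 1.69, given as a description with no test.

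Xcl1, which encodes a ligand of XCR1 made by T cells and NK cells, was at 2.12, 0, 0.47 and 0 FPKM in TAM-WT and at 3.17, 4.22, 3.67 and 2.95 FPKM in TAM-KO. The groups did not overlap, as for Xcr1, but with 9, 0, 2 and 0 counts in TAM-WT the log2 fold change of 2.39 had an SE of 0.80 and did not pass (edgeR adjusted p = 0.0875, on 3 TAM-KO libraries). The summed level of the 10 listed T cell markers was 2.51 to 19.3 FPKM in TAM-WT and 21.9 to 57.3 FPKM in TAM-KO replicates 2 to 4. TAM-WT replicate 1, the highest of its group for Xcr1 and Xcl1, also had the highest sum of its group. Of the 9 T cell markers tested, 8 had a positive log2 fold change and 1, Cd2, passed (log2 fold change 2.24, edgeR adjusted p = 0.0241, on 3 TAM-KO libraries, and lost in 4 of 8 leave-one-library-out fits, without TAM-WT replicates 3 or 4 or TAM-KO replicates 2 or 3). Cd3d, Cd8b1 and Trat1 were listed at 0 in at least 1 TAM-WT library, while Cd3e and Cd3g were at or above 0.05 FPKM in every library. NK cell markers summed to 0.77 to 13.0 FPKM in TAM-WT and 11.2 to 41.2 FPKM in TAM-KO replicates 2 to 4. Gzmb, Klrk1 and Prf1 made up most of these sums. Of the 4 tested, 1 passed, Eomes (2 of 8 leave-one-library-out fits, without TAM-WT replicate 1 or 2). Ncr1 was listed at 0 in 3 TAM-WT and 2 TAM-KO libraries. Klrb1c leaned the other way and was not tested, at 0.07 to 0.25 FPKM in TAM-WT and 0.05 to 0.13 FPKM in TAM-KO replicates 2 to 4. The part of these cells in the Xcr1 result was not tested.

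Batf3 (chromosome 1, 191098414 to 191108943), the transcription factor on which cDC1 development depends, was at 5.16, 4.11, 3.95 and 2.85 FPKM in TAM-WT and at 6.81, 8.20, 9.31 and 4.53 FPKM in TAM-KO. TAM-KO replicates 1 to 3 were above every TAM-WT library, and TAM-KO replicate 4 lay between TAM-WT replicates 2 and 1. The log2 fold change of 0.75 ± 0.25 (SE) did not pass in edgeR (adjusted p = 0.0782, 8 libraries, 22 to 71 counts). It passed without TAM-KO replicate 4 (edgeR adjusted p = 0.0435) and with DESeq2's Wald test (adjusted p = 0.0443).

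Other genes of the cDC1 program moved unequally. Of 14 listed genes, 12 were tested, 2 were higher and 0 lower, and their median log2 fold change was 0.12 beside 0.002 for all genes tested. Cadm1, an adhesion molecule of cDC1 that melanoma and other cells also carry, was at 44.4, 33.7, 27.9 and 35.9 FPKM in TAM-WT and at 53.1, 72.6, 67.3 and 53.9 FPKM in TAM-KO. Its groups did not overlap, and the log2 fold change was 0.69 ± 0.13 (SE, edgeR adjusted p = 0.0200, 8 libraries). Tlr3, a sensor of double-stranded RNA, was at 6.06, 4.32, 4.11 and 4.88 FPKM in TAM-WT and at 7.57, 11.3, 10.03 and 8.04 FPKM in TAM-KO. Its groups did not overlap either, with a log2 fold change of 0.90 ± 0.14 (SE, edgeR adjusted p = 0.0168, on 3 TAM-KO libraries). Both passed in 5 of 8 leave-one-library-out fits, and lost the call when TAM-WT replicate 3 or either of TAM-KO replicates 2 and 3 was absent, with adjusted p of up to 0.0756 and 0.0719 from edgeR. The 7 melanoma markers also had positive log2 fold changes, and 1 passed, Sox10 (log2 fold change 0.76, edgeR adjusted p = 0.0295, passing in 3 of 8 leave-one-library-out fits, without TAM-WT replicate 1, TAM-WT replicate 2 or TAM-KO replicate 4), and their sum was 1958 to 4382 FPKM in TAM-WT and 3817 to 5057 FPKM in TAM-KO. Their part in the level of Cadm1 was not tested.

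The most abundant genes of the cDC1 program were Id2 and Ppt1. Id2, a transcriptional inhibitor of many leukocytes, was at 361 ± 72.2 FPKM in TAM-WT and 240 ± 63.8 FPKM in TAM-KO (SD, n = 4 each), and its log2 fold change of -0.85 missed the threshold (edgeR adjusted p = 0.0565, on 3 TAM-KO libraries). Ppt1, a lysosomal enzyme, was at 81.9 ± 7.71 and 85.1 ± 4.09 FPKM (SD, n = 4 each; edgeR adjusted p = 0.697). Irf8, the partner of BATF3 in cDC1 and a factor of monocytes and macrophages as well, had a log2 fold change of 0.01 (edgeR adjusted p = 0.960, on 3 TAM-KO libraries), and is named after its value was seen.

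Flt3 (chromosome 5, 147330741 to 147400489), the receptor for FLT3 ligand, was at 0.84, 0.46, 0.73 and 0.76 FPKM in TAM-WT and at 2.11, 0.86, 0.81 and 1.05 FPKM in TAM-KO. TAM-KO replicate 1, from the series-wide table, was the highest library, and TAM-KO replicate 3 lay within the TAM-WT range. On the other 7 libraries the log2 fold change was 0.22 ± 0.26 (SE, edgeR adjusted p = 0.613, 27 to 61 counts). Flt3l, the gene of its ligand, averaged 6.26 ± 0.698 in 4 TAM-WT and 7.08 ± 0.676 FPKM in 3 TAM-KO libraries (SD), and its log2 fold change was 0.04 (edgeR adjusted p = 0.876). Zbtb46 (chromosome 2, 181371009 to 181493262) was at 1.5, 1.04, 0.96 and 1.24 FPKM in TAM-WT and at 1.53, 1.18, 0.98 and 1.02 FPKM in TAM-KO. Both groups spanned nearly the same range, with replicate 1 highest in each. The fitted log2 fold change of 0.002 had an SE of 0.20 (edgeR adjusted p = 0.995, 8 libraries).

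Cd209a (chromosome 8, 3743395 to 3748984), a C-type lectin of cDC2 and of monocyte-derived dendritic cells, was at 6.07, 2.56, 4.19 and 5.25 FPKM in TAM-WT and at 2.09, 2.57 and 2.53 FPKM in TAM-KO replicates 2 to 4. TAM-WT replicates 1, 3 and 4 were above all TAM-KO libraries, while TAM-WT replicate 2 lay among them. The log2 fold change of -1.01 ± 0.30 (SE) did not pass (edgeR adjusted p = 0.0650, 42 to 126 counts). It passed without TAM-WT replicate 2 (edgeR adjusted p = 0.00627) and with DESeq2's Wald test (adjusted p = 0.0153).

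The Cd209 family, lectin genes clustered beside Cd209a, had 1 of its 6 other members above the filter on low counts. Cd209c, of little studied function, was at 1.83, 1.53, 2.10 and 1.53 FPKM in TAM-WT and at 2.55, 4.03, 3.54 and 3.76 FPKM in TAM-KO. Every TAM-KO library was above every TAM-WT library, with a log2 fold change of 0.98 ± 0.19 (SE, edgeR adjusted p = 0.0255, on 3 TAM-KO libraries), opposite in sign to Cd209a. The call was lost in 3 of 8 leave-one-library-out fits, those lacking replicate 4 of TAM-WT or either of replicates 2 and 3 of TAM-KO, with adjusted p of up to 0.0994 from edgeR. Cd209f was at 2.00, 3.49, 0.75 and 0.34 FPKM in TAM-WT and at 0, 0.05, 0 and 0.15 FPKM in TAM-KO, and Cd209g ran from 0.09 to 0.73 FPKM in TAM-WT and from 0 to 0.07 FPKM in TAM-KO. For both, every TAM-KO library was below every TAM-WT library, but neither was tested, and Cd209b, Cd209d and Cd209e reached at most 1.16 FPKM. Reads could have been split between the members of this family, so their levels are uncertain.

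Of the 12 genes of the cDC2 program, 10 were tested, 0 were higher and 3 lower, with a median log2 fold change of -0.33. Mgl2, which encodes the lectin CD301b, was at 44.8, 24.3, 33.9 and 25.9 FPKM in TAM-WT and at 14.8, 6.83, 8.49 and 18.3 FPKM in TAM-KO. Clec10a, its neighbour that encodes CD301a, was at 63.6, 60.5, 69.2 and 42.8 FPKM in TAM-WT and at 34.1, 25.7, 30.5 and 33.8 FPKM in TAM-KO. Neither gene showed overlap, and their log2 fold changes were -1.51 ± 0.31 (SE, edgeR adjusted p = 0.0253, 8 libraries) and -1.08 ± 0.18 (SE, edgeR adjusted p = 0.0194, on 3 TAM-KO libraries). Both are near-identical copies whose counts were not whole, so reads could have been split between them, and both were lower. Macrophages with an alternative activation program carry these lectins as well.

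Klf4, a transcription factor of cDC2 and of monocytes, was at 29.5, 33.0, 48.3 and 42.2 FPKM in TAM-WT and at 24.9, 19.9, 18.7 and 26.4 FPKM in TAM-KO. Its groups did not overlap, with a log2 fold change of -0.93 ± 0.23 (SE, edgeR adjusted p = 0.0433, on 3 TAM-KO libraries). In the 8 leave-one-library-out fits, Mgl2 passed 5 times, Clec10a 6 times and Klf4 3 times. None of the 3 passed when TAM-KO replicate 2 was absent, or when TAM-KO replicate 3 was, and their adjusted p reached 0.0863, 0.0829 and 0.153 in edgeR. Sirpa, an inhibitory receptor of all myeloid cells and the most abundant gene of the program, was at 350 ± 28.4 and 310.5 ± 7.80 FPKM (SD, n = 4 each; edgeR adjusted p = 0.0673). Both programs held genes of either sign. In the cDC1 program 7 of the 12 tested log2 fold changes were positive and 5 negative, down to -0.85 for Id2. In the cDC2 program 7 were negative and 3 positive, Ltb (1.91), Cd7 (1.23) and Tnfrsf11b (0.94), of which 0 passed. The lower genes of the cDC2 program and the higher genes of the cDC1 program are set side by side, and a difference between both programs was not tested.

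**Figure D2:**
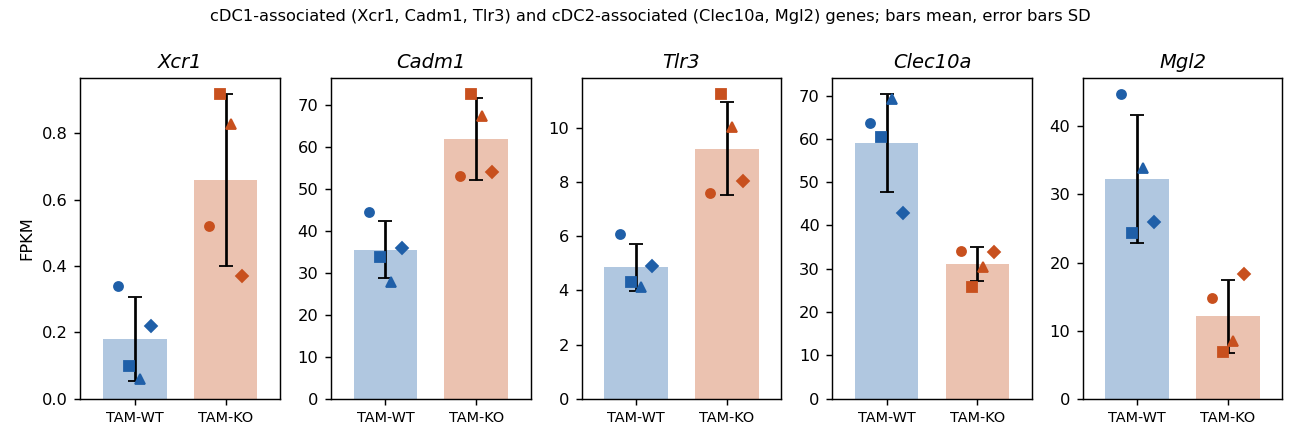
FPKM of Xcr1 and of the genes that passed in the cDC1 program (Cadm1, Tlr3), and of Clec10a and Mgl2 from the cDC2 program. The genes shown were picked because they passed. Not shown are Klf4, which also passed, Clec9a, and the genes of both programs that did not pass, among them genes with fold changes of the opposite sign. Bars are group means, error bars the SD over 4 libraries and symbols the libraries, and no gene shown has overlapping groups. For Tlr3 and Clec10a, TAM-KO replicate 1 is from the series-wide table.

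Itgae (chromosome 11, 73090505 to 73147449), the CD103 chain of an integrin of migratory cDC1 and of tissue T cells, was at 0.57, 0.38, 0.46 and 0.24 FPKM in TAM-WT and at 0.60, 0.32 and 0.33 FPKM in TAM-KO replicates 2 to 4. The groups overlapped almost in full, and the log2 fold change was -0.10 ± 0.35 (SE, edgeR adjusted p = 0.876, 16 to 37 counts). The chain that pairs with it, Itgb7, had a log2 fold change of 0.25 (edgeR adjusted p = 0.496), and Cdh1, the gene of its ligand E-cadherin, of -0.79 (edgeR adjusted p = 0.144), each on 3 TAM-KO libraries.

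Dpp4 (chromosome 2, 62330073 to 62412315), the CD26 peptidase of cDC1 and T cells, was at 0.93, 0.20, 0.66 and 0.68 FPKM in TAM-WT and at 1.22, 1.18, 1.10 and 0.61 FPKM in TAM-KO. TAM-KO replicates 1 to 3 were above the TAM-WT libraries, and TAM-KO replicate 4 was below all but 1 of them. Without TAM-KO replicate 1, whose value came from the series-wide table, the log2 fold change was 0.50 ± 0.42 (SE, edgeR adjusted p = 0.453). Ada, which encodes the adenosine deaminase that human CD26 anchors at the cell surface, had a log2 fold change of 0.26 (edgeR adjusted p = 0.165, on 3 TAM-KO libraries). Cxcl10, a chemokine that DPP4 can trim, was the 1 gene of the 9 tested ligands and partners that passed. Its level was 111 ± 19.8 FPKM in TAM-WT and 214.5 ± 59.3 FPKM in TAM-KO (SD, n = 4 each), with a log2 fold change of 0.92 ± 0.20 (SE, edgeR adjusted p = 0.0325, on 3 TAM-KO libraries). It lost the call in the 3 fits that lacked replicate 3 of TAM-WT or either of replicates 2 and 3 of TAM-KO, with adjusted p of up to 0.0952 from edgeR.

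The remaining partners are receptors for growth and adhesion of myeloid cells. Csf2ra and Csf2rb, the receptor chains for GM-CSF, had log2 fold changes of -0.19 and -0.24, and Itgax, which encodes CD11c, of 0.23, with adjusted p of 0.418, 0.542 and 0.568 from edgeR, each on 3 TAM-KO libraries. Csf2, the gene of GM-CSF, was at or under 0.42 FPKM and was not tested.

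Cd83 (chromosome 13, 43785112 to 43803133) was at 39.3, 71.9, 82.9 and 68.5 FPKM in TAM-WT and at 36.7, 30.3, 33.9 and 33.1 FPKM in TAM-KO. All TAM-KO libraries lay close together below all TAM-WT libraries, and TAM-WT replicate 1 was nearer to them than to the rest of its group. On 3 TAM-KO libraries, without replicate 1, the log2 fold change was -1.13 ± 0.25 (SE, edgeR adjusted p = 0.0332, 934 to 2650 counts). The groups did not overlap without TAM-KO replicate 1 either. Of all genes tested on 3 TAM-KO libraries, and compared without replicate 1, 26.5% had groups that did not overlap, 18.2% with TAM-KO higher and 8.29% with TAM-KO lower. The call held in 3 of 8 leave-one-library-out fits. It was lost without TAM-WT replicate 3 or 4 or without TAM-KO replicate 2, 3 or 4, with adjusted p from edgeR of up to 0.129, and the log2 fold change ran from -1.32 to -0.96.

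Fscn1 (chromosome 5, 142960355 to 142973189), the actin-bundling protein of mature dendritic cells that melanoma cells can carry as well, was at 8.93, 3.42, 4.18 and 5.54 FPKM in TAM-WT and at 10.8, 5.73, 6.15 and 8.99 FPKM in TAM-KO. Replicate 1 was the highest in each group, and the groups overlapped. The log2 fold change of 0.24 ± 0.32 (SE) did not pass (edgeR adjusted p = 0.643, on 3 TAM-KO libraries) and was -0.02 without TAM-KO replicate 4. Cd83 and Fscn1, both taken as signs of maturation, thus had fold changes of opposite sign, of which only that of Cd83 passed.

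**Figure D3:**
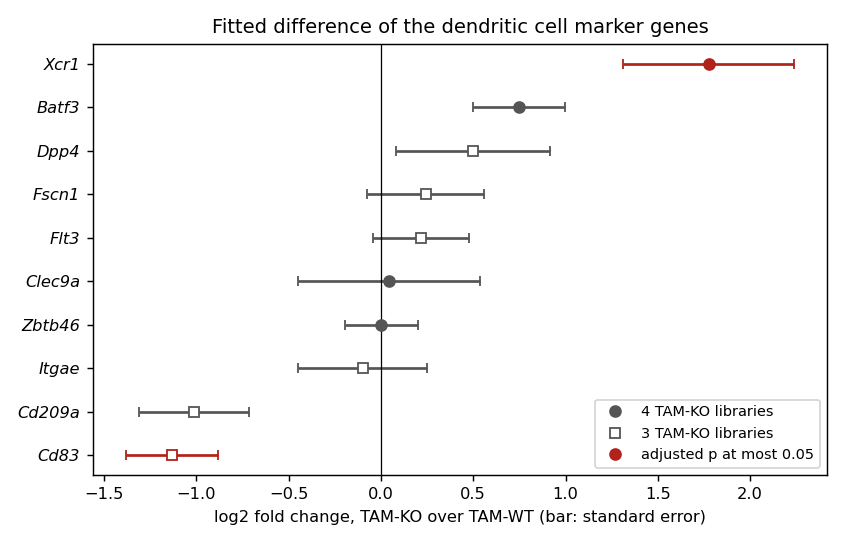
Log2 fold change of each marker gene, TAM-KO over TAM-WT, with its standard error derived from edgeR's test. Open squares were tested on 3 TAM-KO libraries, and the genes in red, Xcr1 at 1.78 and Cd83 at -1.13, passed an adjusted p of at most 0.05.

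Of the 22 other genes of the mature dendritic cell program, 20 were tested, 0 were higher and 2 lower, with a median log2 fold change of -0.16. Il12b, a subunit of the T cell activating cytokine IL-12, was at 1.49, 0.59, 1.02 and 1.08 FPKM in TAM-WT and at 0.35, 0.21 and 0.42 FPKM in TAM-KO replicates 2 to 4. Its groups did not overlap, and it had a log2 fold change of -1.77 ± 0.39 (SE, edgeR adjusted p = 0.0329, 8 to 57 counts). Cd80, a costimulatory ligand, was at 12.8, 11.6, 15.7 and 15.9 FPKM in TAM-WT and at 11.7, 8.84, 7.87 and 10.3 FPKM in TAM-KO, where replicate 1, from the series-wide table, lay within the TAM-WT range. Its log2 fold change was -0.75 ± 0.16 (SE, edgeR adjusted p = 0.0329, on 3 TAM-KO libraries). Both passed in 4 of 8 leave-one-library-out fits, and neither did when any of TAM-WT replicates 3 and 4 and TAM-KO replicates 2 and 3 was absent, where adjusted p reached 0.119 and 0.126 in edgeR.

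The most abundant genes of the mature program did not pass. Cd274, which encodes PD-L1, was at 39.8 ± 11.9 and 47.7 ± 12.5 FPKM (SD, n = 4 each; edgeR adjusted p = 0.741), and Laptm4b, a lysosomal membrane protein, at 20.2 ± 6.09 and 31.6 ± 2.77 FPKM (SD, n = 4 each; edgeR adjusted p = 0.0874, on 3 TAM-KO libraries). Ccr7 and Ccl22, the receptor that guides mature dendritic cells to lymph nodes and a chemokine they make, are named after their values were seen and had log2 fold changes of -0.36 each, with adjusted p of 0.506 and 0.571 from edgeR.

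Over the 10 marker genes, 7 log2 fold changes were positive and 3 negative, and their median was 0.13 beside 0.002 for all 12412 genes tested. With a fold change of at least 2 as well, 2 of 10 passed, where 2.53% of all genes did. Among markers of other myeloid cells, 0 of 10 macrophage markers passed, with a median log2 fold change of -0.14, while 3 of 7 monocyte markers were higher, among them Ly6c2 and Plac8 with log2 fold changes of 1.79 and 1.41 (adjusted p = 0.0441 and 0.0123 from edgeR, the first on 3 TAM-KO libraries). Plac8 passed in 8 of 8 leave-one-library-out fits and Ly6c2 in 2, those lacking TAM-WT replicate 2 or TAM-KO replicate 4, with adjusted p of up to 0.145 from edgeR in the others. Of the 7 monocyte markers, 4 had a positive log2 fold change and 3 a negative one. The negative ones were Ccr2, Vcan and F10, at -0.05, -0.38 and -0.59, each on 3 TAM-KO libraries, and none of them passed. The summed level of the monocyte markers was 117 to 266 FPKM in TAM-WT and 330 to 478 FPKM in TAM-KO replicates 2 to 4. Neutrophil markers summed to 21.4 to 32.3 FPKM in TAM-WT and 48.8 to 196 FPKM in TAM-KO, with 1 of 4 tested past the threshold, S100a8. TAM-KO replicate 1 alone gave the upper sum, the other TAM-KO libraries lying between 48.8 and 55.6 FPKM. S100a8 had a log2 fold change of 2.68 (adjusted p = 0.0481 from edgeR), which was 1.52 without TAM-KO replicate 1 (adjusted p = 0.0444), and it lost the call when any other library was left out. Of the B cell markers, 0 of 3 tested passed, and their median log2 fold change was -0.52. Cd79a and Fcer2a, with at most 18 and 12.6 counts, had -0.52 and -0.53. Cd79b, the most abundant at 47 to 163 counts, had 0.88 (edgeR adjusted p = 0.11, on 3 TAM-KO libraries). The listed B cell markers summed to 4.52 to 7.31 FPKM in TAM-WT and 5.87 to 11.1 FPKM in TAM-KO replicates 2 to 4. The part of these cells in the values of the dendritic cell marker genes was not tested.

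**Figure D4:**
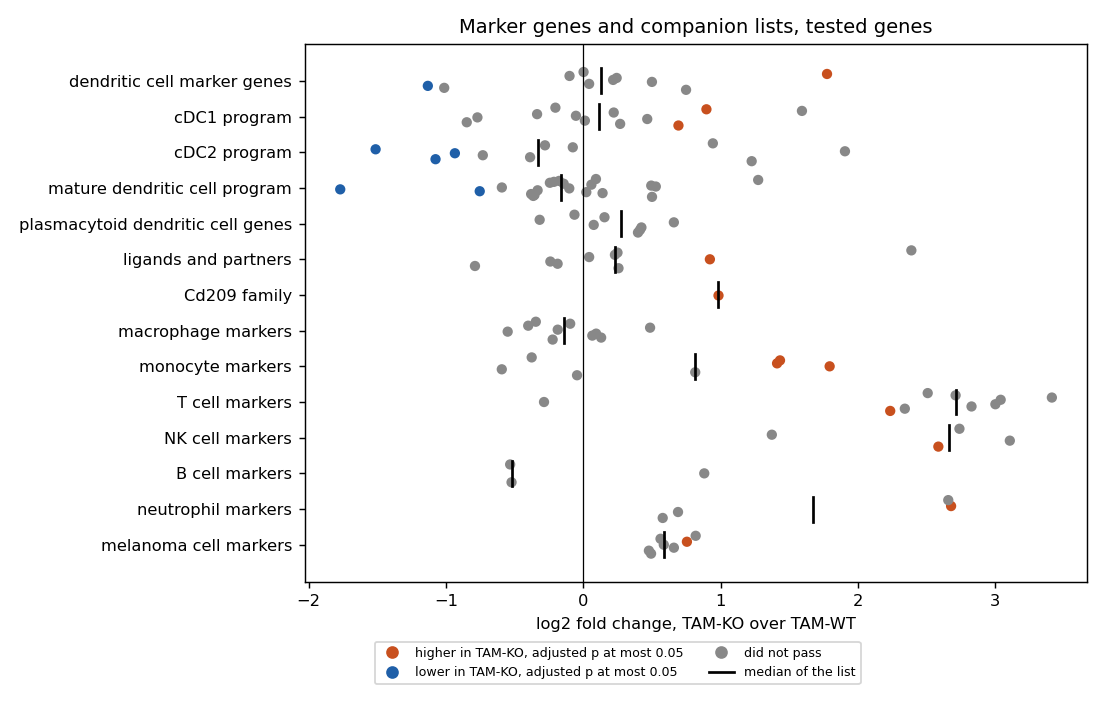
Log2 fold change of every tested gene of the dendritic cell marker genes and of 13 companion lists, with a bar at the median of each list. Orange and blue points passed higher or lower in TAM-KO. The medians run from -0.52 for B cell markers, with 3 tested and 1 of them positive, to 2.71 for T cell markers.

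Genes that varied from mouse to mouse together with a marker gene were ranked by Pearson's r of deviations of log2 CPM from the group means, over 7 libraries and 11941 genes. For Xcr1 the nearest were Mrpl50, Zbtb32 and Cadm1, with r of 0.992, 0.989 and 0.984, and 22 genes reached 0.95. For Cd209a they were Itgax, Mapk1ip1l and Tmem123, with r of 0.997, 0.996 and 0.991, and 52 genes reached 0.95. For Fscn1 they were Cpne2, Zfp319 and Slfn3, with r of 0.992, 0.984 and 0.980, and 14 genes reached 0.95. The points share libraries and depth, and with so few libraries the nearest of many genes have a high r by selection. Of the nearest genes named here, only Cadm1 and Itgax, which encodes CD11c, are on the companion lists, and the ranking is given as a description.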

How the data were processed

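RNA of sorted CD45+F4/80+ cells was sequenced on the BGISEQ-500 platform. The authors aligned reads to the mouse genome and deposited RSEM expected counts per gene, without normalization. The FPKM and TPM values were computed and deposited by the authors, and TPM enters no result. The submitters' processing notes name HISAT2 2.0.4, Bowtie2 2.2.5, RSEM 1.2.12 and the build GRCm38.p6. A series-wide table of the authors' comparison covers 3996 genes. The log2 ratios, p-values and q-values that the authors deposited in it were not used, but it gave values of TAM-KO replicate 1 for 1188 of 4214 genes without a usable value in that library's own table. Another 629 values of that table, listed under genes with no value elsewhere, and 1 joined line were not used.

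The 8 libraries were grouped by genotype as labelled. Rounded expected counts entered edgeR 4.0.16 under R 4.3.3 (TMM, filterByExpr, glmQLFit, glmQLFTest) with Benjamini-Hochberg adjustment over 12412 genes, of which 9396 were fitted on 8 libraries and 3016 on 7. FPKM means include TAM-KO replicate 1 where the series-wide table gives it. Log2 fold changes come from the counts. After ± stands the SD for FPKM and the standard error (SE) for log2 fold changes. The quasi-likelihood test prints no SE, so it was derived as the absolute log2 fold change divided by the square root of the F statistic. On simulated counts of 12391 genes, the test called 91% of 100 genes changed by 1 and 97% of 100 genes changed by 2 on the log2 scale, and 16 of 12191 unchanged genes. Changes were set only in genes with a mean above 1 CPM, and genes varied independently of each other. These shares therefore do not carry over to genes of lower counts or to variation that genes of a library share.

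The marker genes and the 13 companion lists were chosen with earlier results of these data known. Named from the lists are genes that passed, the 2 most abundant of each list of dendritic cell genes, and all ligands, partners and Cd209 genes. The 2 most abundant genes of the lists for other cells are not all named. Genes named outside this rule are marked in the text or appear with the values of a list. Values of 2 listed genes are not reported here and remain in the counts of their lists. Alternatives were DESeq2 1.42.0, limma 3.58.1 on log2(FPKM + 1) and log2(FPKM + 0.1), other size factors, other filters, a replicate block, a fit on 7 libraries, stricter thresholds and each library left out. A fit with TAM-KO replicate 1 filled, the alternatives of the companion lists and the ratio of Xcr1 to Clec9a were chosen after seeing the data. Depth was 16225362 to 17280267 reads for whole tables, and standard errors carry the spread between mice.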

Additional observations from a re-analysis of the deposited data

Results flagged for a closer look

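Each group of 4 values of 136 marker and listed genes was searched for a library far from the other 3, and groups in which no library exceeded 3 counts were left out. A far library was found in 14 of the 220 groups, and chance alone would give about 11 such groups. None was a value of the 10 dendritic cell marker genes. TAM-WT replicate 1 held 8 of the 14, and 7 of these were genes of T cells and NK cells. There Cd3d was at 0.94 FPKM beside at most 0.11 in the other TAM-WT libraries, Cd3e at 2.33 beside at most 0.10, Cd3g at 4.58 beside at most 0.23 and Cd8a at 2.16 beside at most 0.21 FPKM. Lck was at 1.96 FPKM beside at most 0.34, Prf1 at 2.49 beside at most 0.05, Gzmb at 6.55 beside at most 0.47 and Ltb, a lymphotoxin gene, at 2.62 beside at most 0.56 FPKM. These genes share cells, so they are not independent of each other. The library with these values was also the highest of TAM-WT for Xcr1 and the lowest for Cd83, and their part in that was not tested.

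TAM-KO replicate 1 held 3 of the values. The neutrophil genes S100a8 and S100a9 were at 73.5 and 80.03 FPKM there and at no more than 15.8 and 13.3 FPKM in the other TAM-KO libraries, and Socs2 was at 3.59 FPKM beside at most 2.25. In other libraries, Rab7b was at 66.4 FPKM in TAM-KO replicate 4 beside at most 54.2, Traf1 at 3.27 FPKM in TAM-WT replicate 2 beside at least 6.58, and Cxcr2 at 0.49 FPKM in TAM-WT replicate 3 beside at most 0.16.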

How the results depend on the processing

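The number of marker genes that passed, 2 in edgeR, was 4 with DESeq2's Wald test (Xcr1, Cd83, Cd209a and Batf3), 1 with at least 10 counts in every library (where Xcr1 was not tested), 1 on 7 libraries for every gene, 1 with TAM-KO replicate 1 filled from the series-wide table (Xcr1 then had an adjusted p of 0.0506), 0 at an adjusted p of at most 0.01, and 0 to 3 with 1 library left out. For all genes, 1218 in edgeR, it was 2253 with DESeq2, 682 on 7 libraries, 314 with a fold change of at least 2, 36 at 0.01, and 77 (without TAM-KO replicate 2 or 3) to 2756 (without TAM-WT replicate 2) with 1 library left out. Of the companion genes, 11 higher and 5 lower, it was 20 higher with scaling to total reads, 26 and 10 with DESeq2, 26 and 25 higher with limma on log2(FPKM + 1) and log2(FPKM + 0.1), 17 higher with TAM-KO replicate 1 filled, and 1 to 25 higher and 0 to 14 lower with 1 library left out. Scaling to total reads or FPKM moved the median of all genes from 0.002 to 0.09 or 0.11 and the share of higher calls from 46.6% to between 64.4% and 69.2%. The sign of small fold changes turned in some fits. Zbtb46 had -0.0054 and -0.0095 with limma at the 2 pseudocounts, -0.17 on 7 libraries, -0.0063 with the filled library, and -0.17 to 0.12 with 1 library left out. Itgae had 0.011 with scaling to total reads, 0.0037 and 0.013 with limma, and -0.43 to 0.066 with 1 library left out. Clec9a ranged from -0.28 to 0.60 and Fscn1 from -0.016 to 0.55 with 1 library left out. The causes were not tested.

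Replicate numbers of both groups are shared. Deviations of same-numbered libraries correlated at 0.049, -0.189 and 0.208 (replicates 2 to 4), and none of the 3 TAM-KO libraries correlated best with its own number. Correlations over so few libraries, with TAM-KO replicate 1 left out, cannot decide whether a shared number marks a pair. With the replicate block, 1080 genes, 2 marker genes (Cd83 and Fscn1, not Xcr1 at an adjusted p of 0.0843) and 22 higher companion genes passed, Zbtb46 had -0.0058 and Itgae 0.059. Low counts limit Xcr1 and Clec9a, with at most 63.3 counts in a library.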

Other observations

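Plasmacytoid dendritic cells, the interferon-producing relatives of the conventional subsets, were not among the 10 marker genes. Of 11 genes listed for them, 8 were tested and 0 passed the test of edgeR, and 6 of the 8 log2 fold changes were positive, with a median of 0.28. Bst2, an interferon-induced surface protein that macrophages carry too, was the most abundant, at 208 ± 27.2 FPKM in TAM-WT and 292 ± 38.6 FPKM in TAM-KO (SD, n = 4 each). Its log2 fold change of 0.40 lay just outside the threshold (adjusted p = 0.0503 from edgeR). Il3ra, a chain of the receptor for IL-3, was at 18.3 ± 0.959 FPKM (SD, n = 4) and 20.2 ± 3.09 FPKM (SD, n = 3), with an adjusted p of 0.714 from edgeR. Siglech, the lectin that defines these cells in mice, was at 0.21, 0.31, 0.61 and 0.78 FPKM in TAM-WT and at 0.96, 0.48, 0.62 and 0.34 FPKM in TAM-KO, and the groups overlapped (adjusted p = 0.830 from edgeR). Siglech is named after its value was seen.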
